A study of Drosophila melanogaster with 17 samples.

Results

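Transcripts of 9 genes of the insulin pathway were followed in fly brains that express human tyrosyl-tRNA synthetase (TyrRS) in their neurons. The genes were the insulin-like peptides Ilp2, Ilp3, Ilp5, Ilp6 and Ilp7, the insulin receptor InR, its substrate chico, the transcription factor foxo and the secreted insulin-binding protein ImpL2. They were chosen by name, after Ilp3 had been seen in these same counts to be above control in TyrRS-WT brains and below it in TyrRS-E196K brains. The levels of Ilp3 in these genotypes are therefore given as a description with no test. Earlier results of these data were known when the other genes were chosen, so their p-values are not those of genes picked without them. All 9 genes were found among the 17559 genes of the count table, and each had reads in every library.

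In the adult fly brain a small group of median neurosecretory neurons, the insulin-producing cells, releases Ilp2, Ilp3 and Ilp5 into the circulation. The peptides bind InR, which recruits chico and activates PI3 kinase and AKT. AKT in turn keeps FoxO out of the nucleus, and ImpL2 binds insulin-like peptides outside the cell and limits their access to the receptor.

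The study compared brains of flies with TyrRS-E196K, a substitution that causes Charcot-Marie-Tooth neuropathy, with wild-type TyrRS, and asked what changes when the nuclear localization signal of either protein is altered (ΔNLS). Whole brains were dissected 10 days after eclosion from flies raised at 25 °C, and poly(A) RNA was sequenced. Every genotype, control included, carried the nSyb-Gal4 driver, which is active in neurons, so the transgene was not limited to the insulin-producing cells, and the fly's own TyrRS gene was present throughout. The groups were TyrRS-E196K with 1 transgene copy (4 libraries), TyrRS-WT with 2 copies (3 libraries), TyrRS-E196K-ΔNLS with 3 copies (4 libraries), TyrRS-WT-ΔNLS with 2 copies (3 libraries) and the control nSyb-Gal4>+ with 0 copies (3 libraries). Copy number differed between all genotypes compared except TyrRS-WT and TyrRS-WT-ΔNLS, and the effects of copy number and transgene cannot be told apart in the other comparisons. The labels do not say whether the libraries of a genotype came from separate groups of flies, so p-values measure the spread between these libraries only. Libraries were sequenced in 2 batches that the labels do not assign, so a batch effect on the comparisons could not be tested directly.

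The libraries held 29380481 to 56030758 reads assigned to genes, and levels are given as CPM, the counts scaled to a common library size after TMM normalization. The neuronal genes elav, nSyb, brp and Syt1 together reached 4147 to 6030 CPM and the glial gene repo 127 to 168 CPM. Genes of tissue that adheres to the brain were read as well: 9 fat body genes summed to 13625 to 53208 CPM, mostly yolk proteins and apolpp, and 7 photoreceptor genes to 5357 to 13322 CPM. Akh, the hormone of the corpora cardiaca, lay between 23.9 and 124 CPM, and 3 hemocyte genes summed to 326 to 1198 CPM. These are bulk samples, in which fewer cells of a type and less RNA per cell cannot be told apart. Libraries of compared genotypes that do not overlap were common at these group sizes, in 12.1% to 18.5% of all 16163 genes, depending on the comparison.

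Per kilobase of exon, the peptides of the insulin-producing cells were the most abundant members. Ilp2 averaged 283 CPM per kb over the 17 libraries, Ilp3 65.9 and Ilp5 56.5 CPM per kb. ImpL2 followed with 43.4, chico with 19.3, Ilp6 with 17.7, foxo with 12.2 and InR with 7.68 CPM per kb, and Ilp7 was lowest at 0.718 CPM per kb. Ilp2 (FBgn0036046, BDGP6, chromosome 3L, 9799698 to 9800440, plus strand), Ilp3 (FBgn0044050, 3L, 9801298 to 9802120, minus strand) and Ilp5 (FBgn0044048, 3L, 9823349 to 9823897, minus strand) are neighbours within 24.2 kb. The others are dispersed: ImpL2 (FBgn0001257, 3L, 4224006 to 4236147), InR (FBgn0013984, 3R, 21570248 to 21619321), foxo (FBgn0038197, 3R, 14056945 to 14087978), chico (FBgn0024248, 2L, 10242512 to 10247078), Ilp6 (FBgn0044047, X, 2331493 to 2334658) and Ilp7 (FBgn0044046, X, 3667621 to 3668845).

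Ilp2, the most abundant brain insulin, fell in TyrRS-E196K brains against every genotype it was compared with. The TyrRS-E196K libraries had 101, 117, 68.7 and 116 CPM of Ilp2, against 193, 182 and 229 CPM in control. The TyrRS-WT libraries had 251, 188 and 268 CPM, the TyrRS-E196K-ΔNLS libraries 277, 240, 231 and 275 CPM, and the TyrRS-WT-ΔNLS libraries 162, 180 and 149 CPM. All 4 TyrRS-E196K libraries thus lay below the other 13. Ilp2 was 1.99-fold lower in TyrRS-E196K than in control (log2 fold change -0.99 ± 0.16, SE; adjusted p = 0.00197, edgeR quasi-likelihood test with Benjamini-Hochberg adjustment over all genes, as throughout). It was 2.34-fold lower in TyrRS-E196K than in TyrRS-WT (-1.23 ± 0.16, edgeR adjusted p = 0.000523) and 2.54-fold lower than in TyrRS-E196K-ΔNLS (-1.34 ± 0.15, edgeR adjusted p = 6.47e-05). Markers of attached tissue differed in that last comparison too: Akh had 24.3 to 56.5 CPM in TyrRS-E196K and 57.6 to 124 CPM in TyrRS-E196K-ΔNLS, and the hemocyte genes summed to 328 to 748 CPM in TyrRS-E196K and 991 to 1198 CPM in TyrRS-E196K-ΔNLS. Neither overlapped, and their part in the Ilp2 level was not tested. The call against TyrRS-WT was lost when only the libraries of these genotypes entered the fit (edgeR adjusted p = 0.0725).

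The other genotypes gave no call for Ilp2 against control. Its log2 fold change was 0.23 (95% interval -0.14 to 0.61) in TyrRS-WT, 0.35 (0.00 to 0.70) in TyrRS-E196K-ΔNLS and -0.29 (-0.67 to 0.08) in TyrRS-WT-ΔNLS. Ranked by mean level, the order was TyrRS-E196K-ΔNLS (256 ± 23.5 CPM, SD), TyrRS-WT (236 ± 42.1), control (201 ± 24.6), TyrRS-WT-ΔNLS (164 ± 15.7) and TyrRS-E196K (101 ± 22.7). The ranges of the 3 highest genotypes overlapped from neighbour to neighbour, and those of control, TyrRS-WT-ΔNLS and TyrRS-E196K did not. TyrRS-E196K-ΔNLS, at 231 to 277 CPM, lay above control, at 182 to 229 CPM, without a call (edgeR adjusted p = 0.321). The gap between TyrRS-WT-ΔNLS and control did not pass the test (edgeR adjusted p = 0.441). The log2 difference of Ilp2 was -1.34 in TyrRS-E196K over TyrRS-E196K-ΔNLS and 0.53 in TyrRS-WT over TyrRS-WT-ΔNLS (95% interval 0.15 to 0.90, edgeR adjusted p = 0.276, not a call). The first minus the second was -1.87 ± 0.23 (SE, edgeR adjusted p = 0.000412). The mutant pair had 1 and 3 transgene copies and the wild-type pair 2 each, so NLS and copy number cannot be told apart in this value. Between the ΔNLS proteins, Ilp2 had 0.64 ± 0.17 in TyrRS-E196K-ΔNLS over TyrRS-WT-ΔNLS (edgeR adjusted p = 0.082), which became a call without TyrRS-E196K replicate 3 (adjusted p = 0.00925), with only the compared genotypes (adjusted p = 0.00419) and in DESeq2 (adjusted p = 0.00608).

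**Figure D1:**
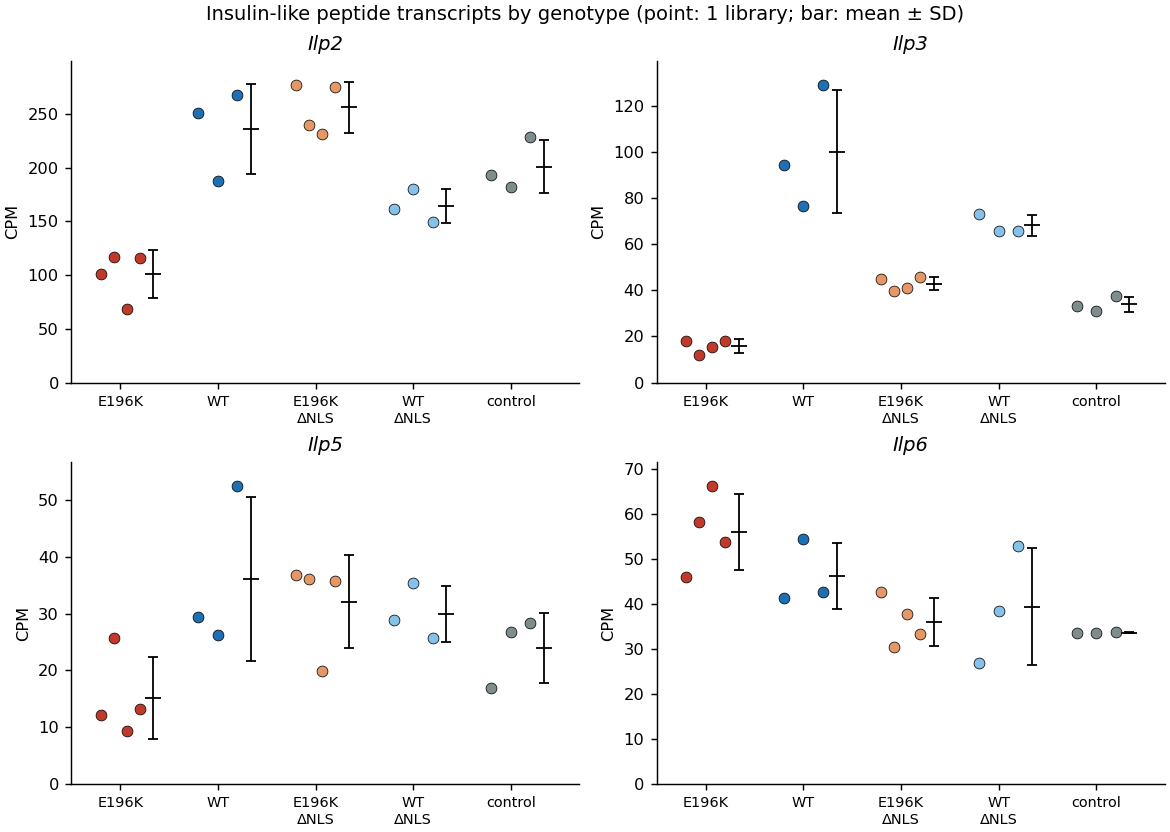
Levels of Ilp2, Ilp3, Ilp5 and Ilp6 in CPM (vertical axes, from 0) by genotype (horizontal axes); each point is 1 library and the bar beside it the mean ± SD. For Ilp2 the TyrRS-E196K points lie between 68.7 and 117 CPM, below all others; for Ilp3 the 5 genotypes form separate bands, from 12.0 to 18.2 CPM in TyrRS-E196K up to 76.5 to 129 CPM in TyrRS-WT.

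Ilp3, released by the same cells, lay at a separate level in each genotype. TyrRS-E196K libraries had 18.2, 12.0, 15.5 and 18.1 CPM of Ilp3 and TyrRS-WT libraries 94.5, 76.5 and 129 CPM, against 33.4, 31.2 and 37.5 CPM in control. TyrRS-E196K-ΔNLS libraries had 45.0, 39.9, 40.9 and 45.7 CPM and TyrRS-WT-ΔNLS libraries 73.1, 65.6 and 65.5 CPM. No neighbours in the order TyrRS-WT, TyrRS-WT-ΔNLS, TyrRS-E196K-ΔNLS, control and TyrRS-E196K overlapped. As a description, the log2 fold change of Ilp3 was -1.09 ± 0.16 (SE) in TyrRS-E196K and 1.56 ± 0.17 in TyrRS-WT against control, and -2.65 ± 0.16 between TyrRS-E196K and TyrRS-WT. It was -1.43 ± 0.15 for TyrRS-E196K over TyrRS-E196K-ΔNLS and 0.55 ± 0.17 for TyrRS-WT over TyrRS-WT-ΔNLS.

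The ΔNLS brains were not part of the pattern that drew attention to Ilp3, and there it was tested. In TyrRS-WT-ΔNLS it was 2.00-fold higher than in control (log2 fold change 1.00 ± 0.17, edgeR adjusted p = 0.00259). The same control libraries were part of the earlier observation, so this p-value is not independent of it. That holds for TyrRS-E196K-ΔNLS against control as well. The log2 fold change in TyrRS-WT-ΔNLS stayed between 0.94 and 1.10 and remained a call in all 23 alternative analyses. In TyrRS-E196K-ΔNLS the log2 fold change was 0.33 (95% interval 0.00 to 0.67, edgeR adjusted p = 0.307), which is not a call although all 4 libraries were above the 3 controls. Against TyrRS-WT-ΔNLS, Ilp3 was 1.59-fold lower in TyrRS-E196K-ΔNLS (-0.67 ± 0.15, edgeR adjusted p = 0.0423). Neither genotype was part of the earlier observation, but the fit estimated the spread from all 17 libraries, those of that observation included. That call was near the threshold: it was lost (edgeR adjusted p between 0.0506 and 0.158) when any 1 of 12 libraries was left out, namely any ΔNLS or control library, TyrRS-E196K replicate 3 or TyrRS-WT replicate 1, and with 1 surrogate variable (adjusted p = 0.0756), while the fold change stayed between -0.81 and -0.61.

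The proportion of Ilp3 to Ilp2 reads separated the wild-type proteins from the other genotypes. The ratio of Ilp3 to Ilp2 reads averaged 0.166 ± 0.052 (SD) in TyrRS-E196K, 0.421 ± 0.054 in TyrRS-WT, 0.168 ± 0.006 in TyrRS-E196K-ΔNLS, 0.418 ± 0.047 in TyrRS-WT-ΔNLS and 0.170 ± 0.005 in control. The 6 libraries with either wild-type protein lay between 0.364 and 0.481, and the 11 others between 0.102 and 0.226. In TyrRS-E196K the mean ratio was that of control within its spread, although both peptides were lower. The Ilp5 to Ilp2 ratio showed no such separation, with 0.147 ± 0.049 in TyrRS-E196K, 0.151 ± 0.041 in TyrRS-WT, 0.125 ± 0.027 in TyrRS-E196K-ΔNLS, 0.182 ± 0.012 in TyrRS-WT-ΔNLS and 0.120 ± 0.030 in control. These ratios were computed after the values had been seen and rest on the levels that drew attention to Ilp3, so no test is given.

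**Figure D2:**
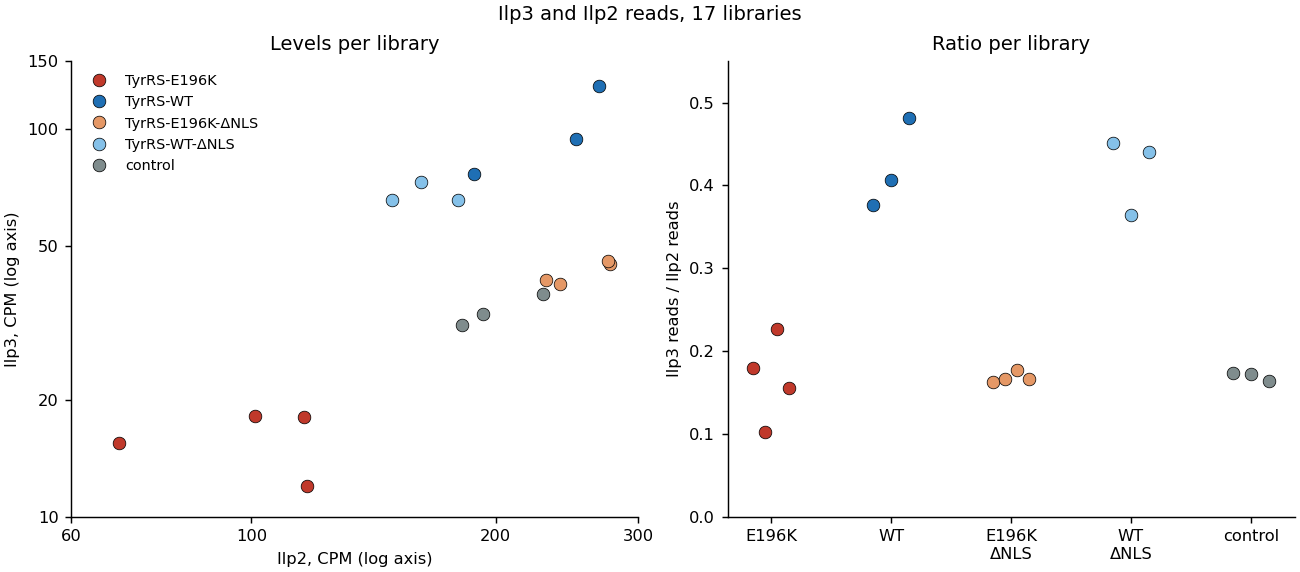
Left, Ilp3 against Ilp2 in CPM on log axes, 1 point per library and 1 colour per genotype; right, the ratio of Ilp3 to Ilp2 reads per library by genotype. Libraries with TyrRS-WT or TyrRS-WT-ΔNLS have ratios of 0.364 to 0.481, and the libraries of TyrRS-E196K, TyrRS-E196K-ΔNLS and control 0.102 to 0.226.

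Dsk, a neuropeptide of the insulin-producing cells that other brain neurons make as well, also fell in TyrRS-E196K brains. Its libraries had 102, 80.4, 85.5 and 87.4 CPM in TyrRS-E196K, against 149, 148 and 185 CPM in control (log2 fold change -0.85 ± 0.10, edgeR adjusted p = 3.78e-05). Dsk was lower in TyrRS-WT as well, at 118, 104 and 126 CPM (-0.46 ± 0.11, edgeR adjusted p = 0.0284), the genotype with the highest Ilp3. In the ΔNLS brains Dsk also lay below every control library without a call, at 137, 138, 143 and 131 CPM in TyrRS-E196K-ΔNLS (-0.22 ± 0.10, edgeR adjusted p = 0.277) and 130, 141 and 111 CPM in TyrRS-WT-ΔNLS (-0.33 ± 0.11, edgeR adjusted p = 0.106). It was lower in TyrRS-E196K than in TyrRS-E196K-ΔNLS (-0.63 ± 0.09, edgeR adjusted p = 0.000315). The call in TyrRS-WT was lost when only TyrRS-WT and control were fitted (adjusted p = 0.0951) and without control replicate 3, TyrRS-WT replicate 1 or TyrRS-WT replicate 2 (adjusted p between 0.0721 and 0.166). The summed neuronal genes ranged from 4893 to 5512 CPM in TyrRS-E196K, 4402 to 5400 CPM in TyrRS-WT and 4512 to 6030 CPM in control. Akh had 24.3 to 56.5 CPM in TyrRS-E196K, 23.9 to 68.8 CPM in TyrRS-WT and 38.4 to 77.1 CPM in control. Photoreceptor genes summed to 6716 to 12033, 5357 to 6625 and 9571 to 11809 CPM in the same 3 genotypes, and none of the 7 was under 1 CPM throughout. The part of these tissues in the peptide levels was not tested.

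Ilp5, the third peptide of the cluster, gave no call in any comparison, and its libraries varied more. TyrRS-E196K libraries had 12.1, 25.7, 9.35 and 13.2 CPM and TyrRS-WT libraries 29.4, 26.2 and 52.5 CPM, against 16.9, 26.7 and 28.4 CPM in control. TyrRS-E196K-ΔNLS libraries had 36.8, 36.1, 19.9 and 35.7 CPM, and TyrRS-WT-ΔNLS libraries 28.9, 35.4 and 25.7 CPM. The ranges of every genotype overlapped that of control. The log2 fold change of Ilp5 in TyrRS-E196K was -0.67 (95% interval -1.45 to 0.11) against control, -1.26 (-2.04 to -0.48, edgeR adjusted p = 0.143) against TyrRS-WT and -1.09 (-1.82 to -0.36, edgeR adjusted p = 0.0875) against TyrRS-E196K-ΔNLS. TyrRS-E196K replicate 2 stood above the other 3, and without it the last 2 became calls, at -1.64 (adjusted p = 0.0248) and -1.47 (adjusted p = 0.015), as they did in DESeq2 (adjusted p = 0.00481 and 0.00435).

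Within a genotype, Ilp5 moved with Ilp2. Deviations of log2 CPM from the genotype mean had a Pearson r of 0.695 and a Spearman rho of 0.745 between Ilp2 and Ilp5 over the 17 libraries (adjusted p = 0.00294 and 0.0024, two-sided permutation tests, adjusted over 3 pairs). Without the 2 libraries farthest from the median in Ilp2, r was 0.614. Ilp2 and Ilp3 had an r of 0.362 and a rho of 0.412 (adjusted p = 0.235 and 0.153), and Ilp3 and Ilp5 an r of 0.063 and a rho of 0.142 (adjusted p = 0.813 and 0.584). Leaving out TyrRS-E196K replicate 2, the library low in Ilp3 and high in Ilp5, gave an r of 0.73 for Ilp2 with Ilp3 (adjusted p = 0.00288) and of 0.65 for Ilp3 with Ilp5 (adjusted p = 0.00772), both by permutation. Removing the genotype means leaves deviations that are not fully independent, and depth and dissection are shared by all genes of a library.

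Ilp6, an insulin-like peptide made mainly in fat body and glia, was higher in TyrRS-E196K, opposite in direction to Ilp2. TyrRS-E196K libraries had 46.0, 58.2, 66.3 and 53.8 CPM, against 33.6, 33.5 and 33.8 CPM in control, with no overlap. TyrRS-WT libraries had 41.3, 54.6 and 42.8 CPM, TyrRS-E196K-ΔNLS libraries 42.7, 30.4, 37.8 and 33.4 CPM and TyrRS-WT-ΔNLS libraries 26.9, 38.4 and 52.9 CPM. Ilp6 was 1.67-fold higher in TyrRS-E196K than in control (log2 fold change 0.74 ± 0.19, edgeR adjusted p = 0.0353) and 1.55-fold higher than in TyrRS-E196K-ΔNLS (0.64 ± 0.18, edgeR adjusted p = 0.0492). Both calls were close to the threshold. The first was lost without TyrRS-E196K replicate 2, 3 or 4 or any 1 control library (adjusted p between 0.0632 and 0.131, log2 fold changes of 0.65 to 0.76). The other was lost (adjusted p between 0.0589 and 0.142) when any 1 of 12 libraries was left out: TyrRS-E196K replicate 2, 3 or 4, TyrRS-E196K-ΔNLS replicate 2, 3 or 4, any control, TyrRS-WT replicate 1 or 3, or TyrRS-WT-ΔNLS replicate 2. It was also lost with 1 surrogate variable (adjusted p = 0.0613).

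Fat body and glial marker genes were read beside Ilp6. The 9 fat body genes summed to 13625 to 34700 CPM in TyrRS-E196K, 39356 to 53208 CPM in TyrRS-E196K-ΔNLS and 28644 to 35741 CPM in control. Yolk proteins and apolpp made up most of these sums, and over all libraries Lsp1beta lay between 6.26 and 252 CPM, Lsp2 between 0.671 and 21.2 CPM and Lsp1gamma between 0.0731 and 1.41 CPM. The 7 glial genes summed to 1388 to 1643, 1658 to 1835 and 1586 to 1798 CPM in the same 3 genotypes. The part of these tissues in the Ilp6 level was not tested. Ilp6 in TyrRS-WT was 0.46 on the log2 scale above control (95% interval 0.03 to 0.90, edgeR adjusted p = 0.348) with no overlap of libraries, and TyrRS-E196K and TyrRS-WT overlapped.

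Ilp7, made by a few neurons that lie mostly in the ventral nerve cord, was barely detected in brain. Its counts were 24 to 49 per library, or 0.48 to 1.04 CPM over all 5 genotypes. Fold changes against control ranged from -0.51 (95% interval -1.07 to 0.06) in TyrRS-WT-ΔNLS to -0.30 (-0.86 to 0.26) in TyrRS-WT on the log2 scale, and none was called. Changes smaller than these intervals were not detectable at this depth.

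InR, the receptor of the brain insulins, was above every control library in all 4 TyrRS-E196K libraries without passing the test. TyrRS-E196K libraries had 107, 114, 112 and 106 CPM, against 94.1, 66.5 and 55.5 CPM in control. The controls spread over a wider range than the mutants, from 55.5 to 94.1 CPM. Of all 16163 genes, 17.3% had libraries that did not overlap in this comparison. The log2 fold change of InR was 0.61 ± 0.20 (edgeR adjusted p = 0.0878), and it became a call without control replicate 1 (0.84, adjusted p = 0.0238), without the TyrRS-WT-ΔNLS library with no number (0.61, adjusted p = 0.0283), with 1 surrogate variable (adjusted p = 0.0355) and in DESeq2 (adjusted p = 0.0181). TyrRS-WT libraries had 80.0, 96.4 and 74.5 CPM, TyrRS-E196K-ΔNLS libraries 67.7, 82.6, 95.8 and 82.4 CPM, and TyrRS-WT-ΔNLS libraries 68.6, 68.7 and 113 CPM. These 3 genotypes overlapped with control, with log2 fold changes of 0.22, 0.19 and 0.21. TyrRS-E196K over TyrRS-E196K-ΔNLS gave 0.42 ± 0.18 for InR (edgeR adjusted p = 0.233), a call only when these genotypes alone were fitted (adjusted p = 0.0135).

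The intracellular members chico and foxo had narrow ranges and no call. The adaptor chico, which links InR to PI3 kinase, lay between 60.1 and 80.6 CPM in all 17 libraries and averaged 72.7 ± 5.60 CPM (SD) in TyrRS-E196K, 69.9 ± 1.10 in TyrRS-WT, 68.2 ± 5.28 in TyrRS-E196K-ΔNLS, 68.6 ± 10.7 in TyrRS-WT-ΔNLS and 64.9 ± 3.33 in control. Its largest log2 fold change against control was 0.16 (95% interval -0.03 to 0.36) in TyrRS-E196K. The transcription factor foxo lay between 43.8 and 56.7 CPM, with a fold change against control of at most 0.15 (-0.02 to 0.32) on the log2 scale, in TyrRS-WT-ΔNLS. An antisense gene overlaps 10.6% of the exon bases of chico, and it was listed at 0 in every library. Transcript levels do not report the phosphorylation or location of the FoxO protein.

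**Figure D3:**
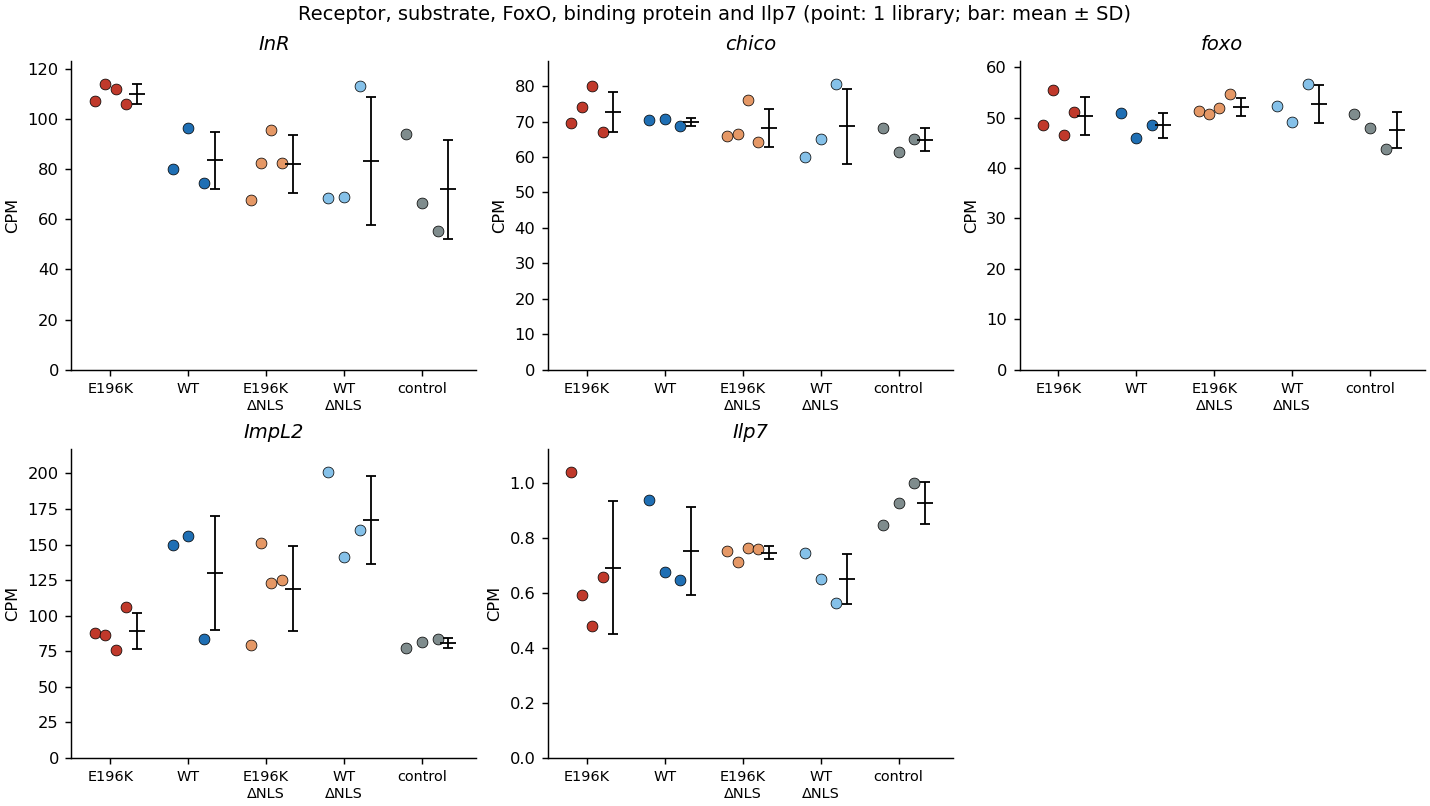
Levels of InR, chico, foxo, ImpL2 and Ilp7 in CPM (vertical axes, from 0) by genotype (horizontal axes); each point is 1 library and the bar the mean ± SD. InR lies at 106 to 114 CPM in TyrRS-E196K against 55.5 to 94.1 CPM in control, ImpL2 at 141 to 201 CPM in TyrRS-WT-ΔNLS against 77.2 to 83.6 CPM in control, and chico and foxo stay in narrow bands.

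ImpL2, which binds insulin-like peptides outside cells, was highest with TyrRS-WT-ΔNLS. These libraries had 201, 141 and 160 CPM, against 77.2, 81.2 and 83.6 CPM in control. ImpL2 was 2.07-fold higher in TyrRS-WT-ΔNLS than in control (log2 fold change 1.05 ± 0.25, edgeR adjusted p = 0.0319). The call was lost without any 1 control library, without TyrRS-WT-ΔNLS replicate 1 (0.90) or without the library of that genotype with no number (adjusted p between 0.0603 and 0.122). Akh had 81.9 to 120 CPM in TyrRS-WT-ΔNLS and 38.4 to 77.1 CPM in control, so the corpora cardiaca marker did not overlap either, and its part in the ImpL2 level was not tested.

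In the other genotypes single libraries of ImpL2 lay with the controls. TyrRS-WT libraries had 150, 156 and 83.5 CPM, and TyrRS-E196K-ΔNLS libraries 79.1, 151, 123 and 125 CPM. TyrRS-E196K libraries had 88.1, 86.7, 75.8 and 106 CPM, close to control (log2 fold change 0.14, 95% interval -0.35 to 0.64). The log2 fold change against control was 0.69 (0.15 to 1.22, edgeR adjusted p = 0.217) in TyrRS-WT and 0.57 (0.06 to 1.07, edgeR adjusted p = 0.241) in TyrRS-E196K-ΔNLS. Without TyrRS-WT replicate 3, the library at the control level, TyrRS-WT gave 0.92 against control (edgeR adjusted p = 0.0462). In a newer BDGP6 annotation 61.9% of the exon bases of ImpL2 also belong to CG46460 on the same strand, so reads of that gene cannot be told apart from ImpL2 over this stretch.

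The members called were counted in each comparison, beside the share of all genes with a non-zero count. With genes of low counts removed by filterByExpr, 1243 of 11493 genes were called in TyrRS-E196K against control and 415 in TyrRS-WT. That filter gave 833 in TyrRS-E196K-ΔNLS and 717 in TyrRS-WT-ΔNLS. Ilp3 is left out of the comparisons in which it was only described. In TyrRS-E196K against control, 2 of 8 members were called, Ilp2 lower and Ilp6 higher, where 6.35% of all 16163 genes tested were called. In TyrRS-WT against control 0 of 8 were called in edgeR, 2 had an unadjusted p under 0.05 and DESeq2 called 0, where 2.30% of all genes were called. In TyrRS-E196K-ΔNLS against control 0 of 9 were called in edgeR, 2 had an unadjusted p under 0.05 and DESeq2 called 0, where 4.79% of all genes were called. In TyrRS-WT-ΔNLS against control 2 of 9 were called, Ilp3 and ImpL2, both higher, where 3.84% of all genes were called. The call of Ilp3 there shares its control libraries with the observation that drew attention to the gene.

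Between the expressing genotypes, Ilp2 was called most often among the members tested. Its calls all used the same TyrRS-E196K libraries, and Ilp3 was tested only between the ΔNLS genotypes. TyrRS-E196K against TyrRS-WT had 1 of 8 members called, Ilp2, against 1.62% of all genes, and TyrRS-E196K against TyrRS-E196K-ΔNLS 2 of 8, Ilp2 and Ilp6, against 5.60%. TyrRS-WT against TyrRS-WT-ΔNLS had 0 of 8 called in edgeR and in DESeq2, with 1 unadjusted p under 0.05 (Ilp2), against 1.20% of all genes. TyrRS-E196K-ΔNLS against TyrRS-WT-ΔNLS had 1 of 9 called, Ilp3, against 1.41%. The difference of the mutant pair minus that of the wild-type pair, with and without the NLS, was called for 1 of 8 members, Ilp2, against 1.53% of all genes, and carries the copy numbers given above. Among the 11493 genes past filterByExpr, 264, 1032, 200, 239 and 280 were called in these comparisons, in the order given. Median log2 fold changes of the 9 members against control were 0.09 in TyrRS-E196K, 0.23 in TyrRS-WT, 0.19 in TyrRS-E196K-ΔNLS and 0.21 in TyrRS-WT-ΔNLS, and that of all genes was 0.00 each time. The 4 comparisons with control share its 3 libraries.

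**Figure D4:**
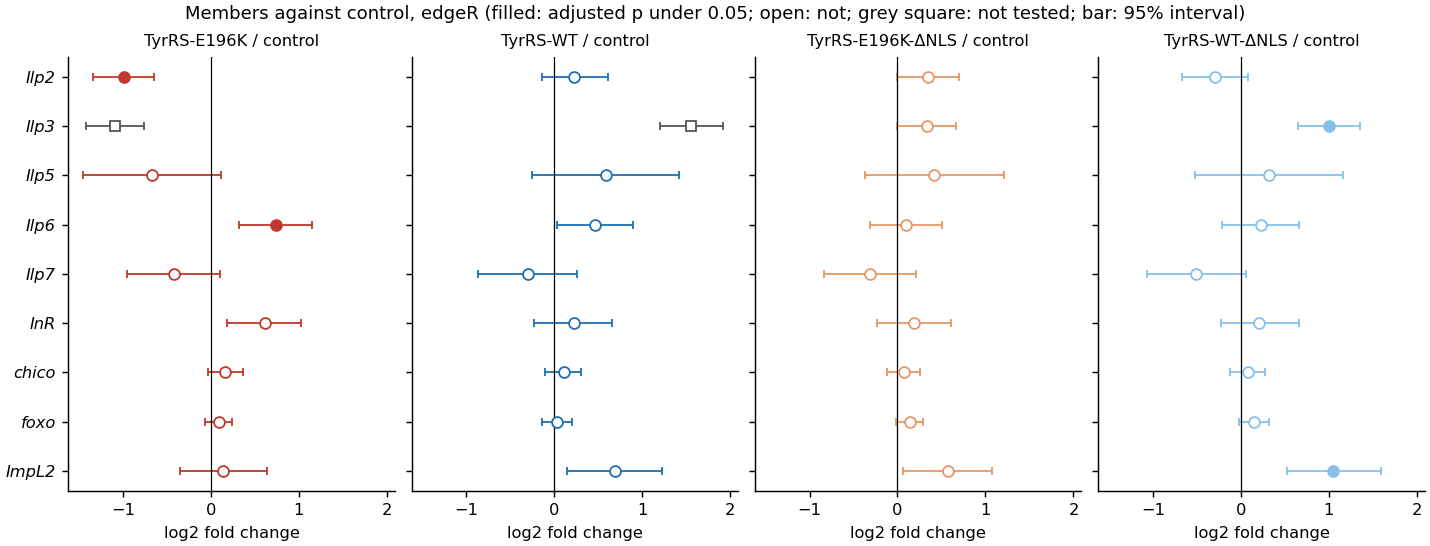
Log2 fold change against control (horizontal axes) of the 9 members (rows) in the 4 expressing genotypes, with 95% intervals from edgeR; filled points passed an adjusted p of 0.05, open points did not, and grey squares were not tested. Ilp2 stands at -0.99 in TyrRS-E196K, Ilp3 at -1.09 there and at 1.56 in TyrRS-WT, and ImpL2 at 1.05 in TyrRS-WT-ΔNLS.

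No call was made for the other genes around Ilp2 and Ilp3 on chromosome 3L. Ilp2 and Ilp3 lie 857 bases apart, with Ilp1 just upstream of Ilp2, Ilp4 between Ilp3 and Ilp5, and CG32052 reaching across Ilp1 to Ilp4 on the plus strand. Ilp1 averaged 2.59 CPM, with log2 fold changes against control between -0.30 and 0.00, and CG32052, at 102 CPM, between -0.20 and -0.16. Of 11 other genes within 50 kb that averaged 1 CPM or more, 0 were called against control in any genotype in edgeR, 4 had an unadjusted p under 0.05 in at least 1 genotype and DESeq2 called 1. The embryonic peptide Ilp4 had 4 to 16 reads per library in the expressing genotypes and 0 to 5 in control, too few for a fold change to be read from them.

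The rest of the pathway was read through 6 lists with 63 measured genes: other ligands and receptors, the PI3K-AKT arm, the TOR arm, FoxO targets, receptors on the insulin-producing cells, and peptide processing. Against control, 2 of the 63 were called in TyrRS-E196K, 1 in TyrRS-WT, 2 in TyrRS-E196K-ΔNLS and 3 in TyrRS-WT-ΔNLS, all of them higher. That is 3.17%, 1.59%, 3.17% and 4.76% of the lists in edgeR, below the shares of all genes given above except in TyrRS-WT-ΔNLS, and the medians of the lists together lay between 0.02 and 0.07 on the log2 scale. DESeq2 called 8, 3, 5 and 7, which is 12.7%, 4.76%, 7.94% and 11.1% of the lists. Its shares of all 16163 genes were 10.1%, 4.66%, 6.92% and 6.89%. Genes of low count, to which DESeq2 can give no adjusted p, stand in these shares as not called. The shares therefore do not show whether the lists lay above or below other expressed genes, and this was not tested.

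In the kinase arms the called genes changed by small amounts. Pdk1, the kinase that phosphorylates AKT, had 225, 214, 211 and 219 CPM in TyrRS-E196K, against 177, 167 and 157 CPM in control (log2 fold change 0.38 ± 0.09, edgeR adjusted p = 0.0133, or 0.0883 without control replicate 3). In TyrRS-WT-ΔNLS Pdk1 averaged 213 CPM, all 3 libraries above the controls (0.35 ± 0.09, edgeR adjusted p = 0.0401), a call lost in 10 of 23 alternatives, with adjusted p up to 0.222 without TyrRS-WT-ΔNLS replicate 1. The other 6 libraries that ended it were the 3 controls, TyrRS-E196K replicate 2 and TyrRS-E196K-ΔNLS replicates 2 and 3. In the TOR arm, gig, the fly TSC2 and a brake on TOR, had 106, 102 and 103 CPM in TyrRS-WT (0.32 ± 0.07, edgeR adjusted p = 0.0233), against 77.7, 90.4 and 80.6 CPM in control. Leaving out control replicate 1 or 3 or any TyrRS-WT library ended the call of gig (adjusted p between 0.0529 and 0.114), as did a fit of only TyrRS-WT and control (adjusted p = 0.152). Sesn, a sestrin that restrains TOR, had 119, 131, 113 and 126 CPM in TyrRS-E196K-ΔNLS, against 94.6, 93.3 and 88.1 CPM in control (0.41 ± 0.07, edgeR adjusted p = 0.00168), and was called in all 23 alternatives.

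Among receptors that act on the insulin-producing cells, the allatostatin A receptor AstA-R2 was called in both ΔNLS genotypes. It had 8.53, 9, 8.55 and 9.78 CPM in TyrRS-E196K-ΔNLS and 8.59, 7.74 and 7.81 CPM in TyrRS-WT-ΔNLS, against 5.55, 5.68 and 4.43 CPM in control. The log2 fold changes of AstA-R2 were 0.78 ± 0.14 (edgeR adjusted p = 0.00156) and 0.63 ± 0.14 (edgeR adjusted p = 0.0187), the last of which was lost without control replicate 3 (adjusted p = 0.109) or TyrRS-WT-ΔNLS replicate 1 (adjusted p = 0.077) and with only the compared genotypes (adjusted p = 0.0534). TyrRS-WT libraries, at 8.53, 7.84 and 6.14 CPM, were above the controls as well without a call (0.52 ± 0.14, edgeR adjusted p = 0.0681). In TyrRS-E196K, AstA-R2 had 6.43, 5.28, 5.78 and 4.46 CPM, below TyrRS-E196K-ΔNLS (-0.71 ± 0.12, edgeR adjusted p = 0.00144). The GABA-B receptor subunit GABA-B-R2 had 517, 526, 484 and 434 CPM in TyrRS-E196K, against 390, 380 and 345 CPM in control (0.40 ± 0.09, edgeR adjusted p = 0.0131, or 0.0891 without control replicate 3). Both receptors are expressed in many other neurons. Akh had 57.6 to 124 CPM in TyrRS-E196K-ΔNLS and 81.9 to 120 CPM in TyrRS-WT-ΔNLS, against 38.4 to 77.1 CPM in control. It had 23.9 to 68.8 CPM in TyrRS-WT and 24.3 to 56.5 CPM in TyrRS-E196K. The part of attached tissue in the AstA-R2 level was not tested.

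Of 9 measured FoxO targets, 1 was called against control in edgeR, the leptin-like cytokine upd2 in TyrRS-WT-ΔNLS, where 3.84% of all genes were called. The call of upd2 rested on 34, 35 and 17 reads there, against 1, 4 and 4 reads in control (log2 fold change 2.74, 95% interval 1.19 to 4.29, edgeR adjusted p = 0.0471). The call of upd2 was lost in 14 of 23 alternatives (adjusted p up to 0.161), 12 of them with 1 library left out: any control, TyrRS-E196K replicate 1, 2 or 4, TyrRS-E196K-ΔNLS replicate 2, 3 or 4, TyrRS-WT replicate 1, or TyrRS-WT-ΔNLS replicate 1 or 2. Thor, the fly 4E-BP and a textbook FoxO target, was not among the calls. The median log2 fold change of the 9 targets against control was 0.36 in TyrRS-E196K, 0.32 in TyrRS-WT, 0.50 in TyrRS-E196K-ΔNLS and 0.70 in TyrRS-WT-ΔNLS. Single targets ranged widely, from -1.20 to 2.31 in TyrRS-E196K and from -0.71 to 2.74 in TyrRS-WT-ΔNLS. Some uncalled targets lay wholly above control. Among them were daw in TyrRS-E196K-ΔNLS (102 to 120 against 60.5 to 68.2 CPM) and Lip4 in TyrRS-E196K (33.5 to 50.5 against 13.6 to 25.4 CPM). No measured target lay wholly below control. Of all genes, 15% and 17.3% did not overlap in these comparisons. Whether the list as a whole differed from control was not tested.

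**Figure D5:**
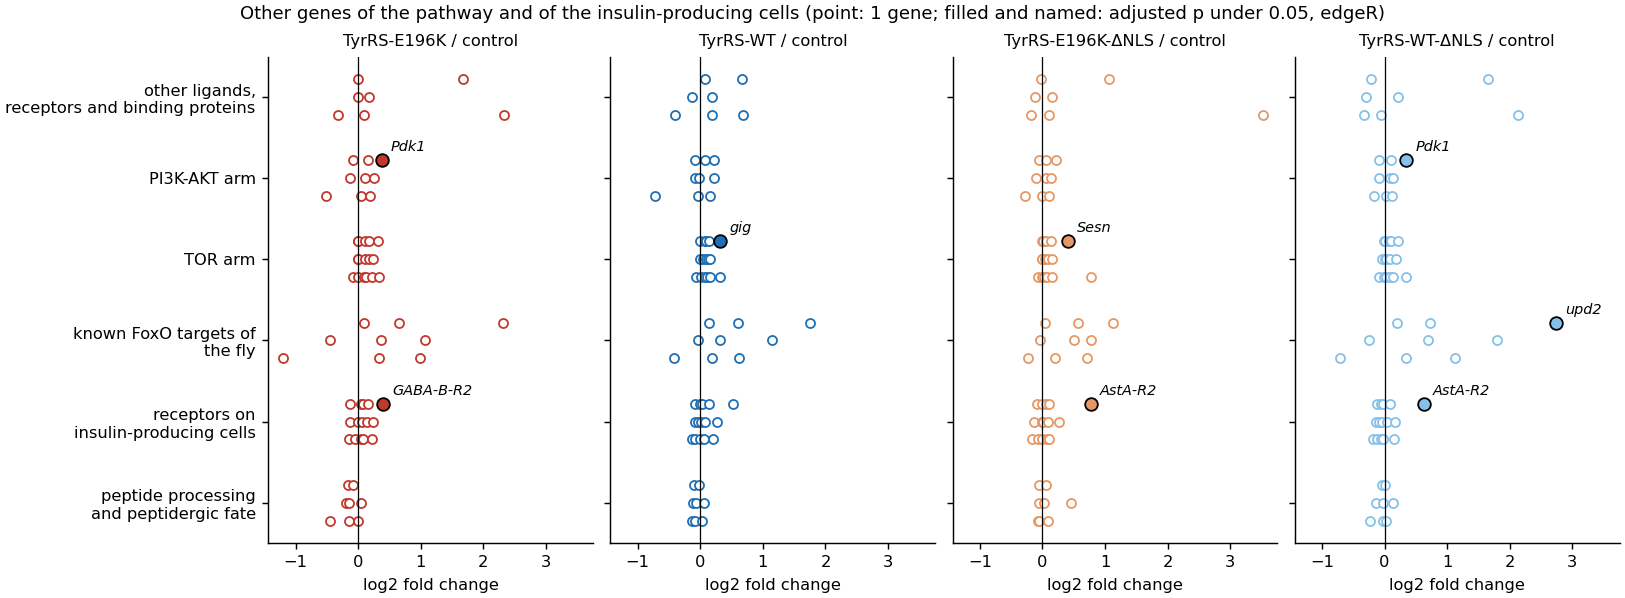
Log2 fold change against control (horizontal axes) of the 63 other genes of the pathway, in 6 lists (rows) and 4 genotypes; each point is 1 gene, and filled, named points passed an adjusted p of 0.05 in edgeR. Pdk1 and GABA-B-R2 are named in TyrRS-E196K, gig in TyrRS-WT, Sesn and AstA-R2 in TyrRS-E196K-ΔNLS, and Pdk1, upd2 and AstA-R2 in TyrRS-WT-ΔNLS.

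Between the expressing genotypes, calls were also made for Sdr, dimm and Nmdmc, which were singled out after their values were seen. Sdr, a secreted decoy of the insulin receptor, was higher with the mutant than with the wild-type protein both with the NLS (63.1 CPM in TyrRS-E196K and 44.7 CPM in TyrRS-WT; log2 fold change 0.50 ± 0.12, edgeR adjusted p = 0.0337) and without it (66.4 CPM in TyrRS-E196K-ΔNLS and 47.5 CPM in TyrRS-WT-ΔNLS; 0.49 ± 0.12, edgeR adjusted p = 0.0452). Control averaged 59.3 CPM, and none of the 4 genotypes was called against it. The call of Sdr with the NLS was lost without TyrRS-E196K replicate 1 or 4 or TyrRS-WT replicate 2 or 3 (adjusted p up to 0.213) and with only the compared genotypes (adjusted p = 0.152), and the other in 13 of 23 alternatives (adjusted p between 0.0534 and 0.181), among them any ΔNLS library, TyrRS-E196K replicate 3 or 4, control replicate 3 or TyrRS-WT replicate 2 left out. No library of the wild-type proteins reached a library of the mutant proteins with the same NLS. The peptidergic transcription factor dimm had 2.88, 4.05, 3.84 and 3.02 CPM in TyrRS-E196K, against 5.84, 6.79, 7.99 and 5.31 CPM in TyrRS-E196K-ΔNLS. Control had 4.3 to 5.48 CPM of dimm, above TyrRS-E196K and overlapping TyrRS-E196K-ΔNLS, and neither was called against it. TyrRS-E196K over TyrRS-E196K-ΔNLS gave -0.91 ± 0.17 for dimm (edgeR adjusted p = 0.002), and this call held in all 23 alternatives. Akh and the hemocyte, fat body and glial sums did not overlap between these genotypes either, all lower in TyrRS-E196K. The neuronal and photoreceptor sums overlapped. The part of these tissues in the dimm level was not tested.

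Nmdmc and GABA-B-R2 gave calls near the threshold. The FoxO target Nmdmc, a mitochondrial folate enzyme, had 16, 20, 16.3 and 21 CPM in TyrRS-E196K-ΔNLS, against 77.3, 42.7 and 102 CPM in TyrRS-WT-ΔNLS. Control had 19.7 to 24.4 CPM, which TyrRS-E196K-ΔNLS overlapped and TyrRS-WT-ΔNLS exceeded without a call. TyrRS-E196K and TyrRS-WT averaged 44.6 and 47.4 CPM. The log2 fold change of Nmdmc between the ΔNLS genotypes was -2.01 ± 0.42 (edgeR adjusted p = 0.0369, lost in 11 of 23 alternatives). Among those were each TyrRS-E196K-ΔNLS library, TyrRS-WT-ΔNLS replicate 1 and the one with no number, control replicates 1 and 3, and TyrRS-E196K replicate 4 (adjusted p between 0.0501 and 0.129 without any 1 of them). GABA-B-R2 was higher in TyrRS-E196K than in TyrRS-E196K-ΔNLS, at 490 and 399 CPM on average (0.30 ± 0.08, edgeR adjusted p = 0.0451), and this call was lost in 14 of 23 alternatives (adjusted p between 0.0502 and 0.139), 11 of them with 1 library left out: TyrRS-E196K replicate 1, 2 or 3, any TyrRS-E196K-ΔNLS library, control replicate 2, TyrRS-WT replicate 1, TyrRS-WT-ΔNLS replicate 2 or the one with no number. TyrRS-WT against TyrRS-WT-ΔNLS gave 0 calls in the 63 genes in edgeR and in DESeq2, with 3 unadjusted p under 0.05.

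Genes whose log2 CPM followed a member most closely over the 17 libraries were searched among the 9371 genes that averaged 1 CPM or more. For Ilp2 these were CG2444 (Pearson r of 0.925), the juvenile hormone epoxide hydrolase Jheh3 (0.920) and the neuropeptide gene natalisin (0.905). For Ilp3 they were the histone variant gene His2Av (0.821), the kinase gene Mekk1 (0.815) and the phospholipase gene sPLA2 (0.814). For Ilp5 they were CG12413 (0.846), the transporter gene ine (0.815) and Ilp2 itself (0.814). For Ilp6 they were the acetyltransferase gene Gcn5 (0.886), the phospholipase gene iPLA2-VIA (0.879) and the cytochrome P450 gene Cyp28a5 (0.878). These correlations carry the differences between the genotypes and the depth and dissection that libraries share, and are given as a description.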

How the data were processed

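RNA-seq of dissected brains was analysed in 17 libraries of 5 genotypes, taken from the labels. The authors trimmed reads with Trimmomatic 0.32, mapped them to BDGP6 (Ensembl release 84) with TopHat2 2.0.12, counted reads per gene with HTSeq 0.6.1 (its strand setting is not given in the sources used here) and deposited these counts without normalization, after removing 3 outlier libraries according to the methods. For 1 TyrRS-WT-ΔNLS library the numbers in the table and in the label disagree, and it is given no replicate number. The deposited normalized counts were not used.

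All 16163 genes with a non-zero count were fitted with edgeR 4.0.16 (R 4.3.3, TMM, robust quasi-likelihood test, 1 mean per genotype, no covariate), with Benjamini-Hochberg adjustment over all genes and a threshold of 0.05. Between 8.13% and 10.1% of the reads in the table were assigned to no gene. The study's own model held a batch factor, which the labels do not give. Alternatives used DESeq2 1.42.0, sva 3.50.0, filterByExpr, subsets of libraries and a replicate block. Correlations were taken on log2 CPM (prior count 2) with 100000 permutations in scipy 1.17.1. Counts per kb used the exon union of a BDGP6 annotation of a later release. No sequence is printed.

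The members and lists were chosen with earlier results of these data known. Every member is named. Of the lists, genes past the threshold against control are named, together with the 3 genes most correlated with Ilp2, Ilp3, Ilp5 and Ilp6. Of 67 listed symbols 65 were matched. The tests were checked on simulated data.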

Additional observations from a re-analysis of the deposited data

Results flagged for a closer look

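Ilp5 in TyrRS-E196K-ΔNLS had 1 library far from the others: replicate 3 at 19.9 CPM, against 35.7 to 36.8 CPM in the other 3, a gap of 0.938 of the whole range. It was the only one flagged in 18 groups of 4 libraries that were checked over the 9 members, and chance flags about 1 in 20. Ilp2 in that library was 231 CPM, the lowest of its genotype, and Ilp3 40.9 CPM.

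The Ilp2 difference between the proteins with and without the NLS was not the same in the mutant and the wild-type pair. The difference between TyrRS-E196K and TyrRS-E196K-ΔNLS minus the difference between TyrRS-WT and TyrRS-WT-ΔNLS was -1.87 ± 0.23 on the log2 scale (SE, edgeR adjusted p = 0.000412). The mutant pair had 1 and 3 transgene copies and the wild-type pair 2 each, so NLS and copy number cannot be told apart. Under the 23 alternatives this value stayed between -2.01 and -1.72, with adjusted p between 1.43e-12 and 0.0137.

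Ilp3 lay below all control libraries in each of the 4 TyrRS-E196K libraries (log2 fold change -1.09) and above them in each of the 3 TyrRS-WT libraries (1.56). The difference between both was not tested, since this contrast had drawn attention to the gene.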

How the results depend on the processing

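Results were recomputed under 23 alternatives: the filterByExpr filter, DESeq2 size factors, the DESeq2 Wald test, only the genotypes compared, a replicate block, 1 surrogate variable, and each of the 17 libraries left out. No called fold change of a member changed direction under any of them. Of the 8 members tested in TyrRS-E196K against control, 1 to 3 were called with single libraries left out, and in TyrRS-WT against control 0 to 1. In TyrRS-E196K-ΔNLS against control and TyrRS-WT against TyrRS-WT-ΔNLS the count was 0 under all 23, and for the interaction of E196K and NLS it was 1. In TyrRS-WT-ΔNLS against control 1 to 2 of 9 were called with single libraries left out (1 without the library that has no number). In TyrRS-E196K against TyrRS-WT the count was 1 to 2 with single libraries left out, 2 in the DESeq2 Wald test and 0 with only the genotypes compared. In TyrRS-E196K against TyrRS-E196K-ΔNLS it was 1 to 2 with single libraries left out and 1 with 1 surrogate variable. In TyrRS-E196K-ΔNLS against TyrRS-WT-ΔNLS it was 0 to 1 with single libraries left out, 2 in the DESeq2 Wald test, 2 with only the genotypes compared and 0 with 1 surrogate variable. The cause of these changes was not tested.

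The correlation of Ilp2 with Ilp3 within genotypes lay between 0.15 and 0.73 with single libraries left out, that of Ilp2 with Ilp5 between 0.64 and 0.76, and that of Ilp3 with Ilp5 between -0.32 and 0.65. Deviations from the genotype means were not shared by libraries of the same number (mean r of -0.011 over 27 pairs, against 0.004 over 74 pairs with other numbers), so the numbers do not pair the samples. With the replicate block, on 16 libraries, the count of members called in TyrRS-WT-ΔNLS against control was 1, as ImpL2 had 1.02 on the log2 scale with an edgeR adjusted p of 0.151. Among the pathway genes the block also ended the calls of AstA-R2 (adjusted p = 0.0764), Pdk1 (0.0792) and upd2 (0.0609) there, of Sdr in TyrRS-E196K against TyrRS-WT (0.0578), of Sdr (0.127) and Nmdmc (0.339) between the ΔNLS genotypes, and of GABA-B-R2 in TyrRS-E196K against TyrRS-E196K-ΔNLS (0.0691), all in edgeR. The other counts of members called were within 1.5 times those without the block. Leaving out libraries also lowers the residual degrees of freedom of groups of 3 or 4.

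Groups of 3 and 4 libraries, transgene copies that differ between genotypes and unassigned batches limit these comparisons. Whole brains with attached tissue do not show which cells changed. Ilp7, Ilp4 and upd2 rest on few reads. The wide intervals of Ilp5 and ImpL2 do not show that levels were alike.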
